A study of Mus musculus with 12 samples.

Results

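The 10 genes described here encode the contractile proteins of fast muscle fibres: the myosin heavy chains Myh1, Myh2 and Myh4, the myosin light chains Mylpf and Myl1, the troponin subunits Tnnt3, Tnni2 and Tnnc2, the tropomyosin Tpm1 and the alpha-actinin Actn3. They were chosen by gene symbol from the 24421 entries of the count table, and all 10 were present and passed the filter on low counts, which left 13937 genes. RNA of the tibialis anterior, a fast hindlimb muscle, was sequenced in 6 WT mice of the strain C57Bl/6 and 6 mdx/mTR mice, all of them males, 4 months old. In mdx mice the dystrophin gene Dmd is disrupted, and mTR denotes the telomerase RNA gene, Terc. The labels name the genotypes no further, so the effect of one allele cannot be told apart from that of the other or from strain background, and nothing in them says how the mice were related.

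In a sarcomere, thick filaments of myosin pull on thin filaments of actin. Each myosin heavy chain carries 1 essential and 1 regulatory light chain, and calcium binding to troponin C moves troponin I, troponin T and tropomyosin away from the myosin sites on actin. Fast and slow fibres use different genes for most of these parts. Among the fast heavy chains, Myh4 marks type IIB fibres, Myh1 type IIX and Myh2 type IIA, and the tibialis anterior of the mouse consists mainly of type IIB and IIX fibres.

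The fast heavy chain genes lie side by side on chromosome 11 of GRCm38, Myh2 at 67171027 to 67197517, Myh1 at 67200052 to 67224575 and Myh4 at 67238029 to 67260446, all on the plus strand (GENCODE M21). Promoters from 250 bases before to 50 after the RefSeq start (GRCm38.p6) were found for 7 of the 10 members. Those of the 3 heavy chains are shown because these genes, though neighbours, did not move alike. Capitals mark the longest run of letters, 20 bases, that all of them hold.
Myh4, chr11:67237562-67237861, plus strand: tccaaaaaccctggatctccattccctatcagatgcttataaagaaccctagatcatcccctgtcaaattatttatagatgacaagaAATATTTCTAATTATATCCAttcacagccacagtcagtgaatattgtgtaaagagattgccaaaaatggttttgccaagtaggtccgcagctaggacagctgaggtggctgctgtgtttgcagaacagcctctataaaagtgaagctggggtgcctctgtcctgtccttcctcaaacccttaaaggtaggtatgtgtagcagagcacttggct
Myh1, chr11:67199852-67200151, plus strand: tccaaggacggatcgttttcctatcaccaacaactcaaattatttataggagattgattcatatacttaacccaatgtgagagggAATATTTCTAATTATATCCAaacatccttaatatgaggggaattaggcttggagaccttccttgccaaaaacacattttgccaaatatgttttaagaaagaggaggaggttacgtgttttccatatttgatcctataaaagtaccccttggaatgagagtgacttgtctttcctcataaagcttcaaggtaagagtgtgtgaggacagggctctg
Myh2, chr11:67170777-67171076, plus strand: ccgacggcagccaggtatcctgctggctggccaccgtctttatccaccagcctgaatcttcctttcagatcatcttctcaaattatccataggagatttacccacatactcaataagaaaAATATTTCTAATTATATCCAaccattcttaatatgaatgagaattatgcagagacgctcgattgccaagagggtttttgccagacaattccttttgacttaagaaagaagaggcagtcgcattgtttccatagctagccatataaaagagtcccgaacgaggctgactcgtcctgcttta
The run begins 163 bases before the start of Myh4, 165 before that of Myh1 and 130 before that of Myh2. Of 32851 mouse promoters of this length, 3 hold it on either strand, and they are those of Myh1, Myh2 and Myh4. The letters TATAAA were present on either strand in 4 of the 7 member promoters, these 3 and that of Myl1, against 13.6% of all promoters.

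The promoters of Mylpf and Tnnc2 are shown because these members changed in opposite directions. Capitals mark the E-box letters CANNTG, which are their own reverse complement and so read the same on both strands.
Mylpf, chr7:127211358-127211657, plus strand: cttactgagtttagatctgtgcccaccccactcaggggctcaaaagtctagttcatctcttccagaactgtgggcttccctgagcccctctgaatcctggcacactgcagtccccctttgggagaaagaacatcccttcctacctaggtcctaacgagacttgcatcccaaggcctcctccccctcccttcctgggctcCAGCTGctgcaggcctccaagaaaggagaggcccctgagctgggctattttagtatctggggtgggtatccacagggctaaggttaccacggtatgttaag
Tnnc2, chr2:164779685-164779984, minus strand: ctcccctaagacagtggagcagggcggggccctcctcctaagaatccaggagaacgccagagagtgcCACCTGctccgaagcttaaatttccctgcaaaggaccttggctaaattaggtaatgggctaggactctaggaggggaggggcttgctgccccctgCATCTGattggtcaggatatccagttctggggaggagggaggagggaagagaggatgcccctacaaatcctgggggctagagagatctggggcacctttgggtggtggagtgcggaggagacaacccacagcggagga
An E-box, the kind of site that MyoD family factors can bind, was present in 5 of the 7 promoters and in 72.3% of all promoters. The MEF3 letters TCAGGTT were in 0 of the 7 and in 4.07% of all, searched on both strands. Matches to the MEF2 consensus were in 2 of the 7, Myh1 and Myh4, against 3.19% of all. Only Myh4 held a CArG box, which 1.63% of all promoters hold. A match describes letters only.

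The WT libraries held between 36903560 and 40981012 counts with TMM factors of 0.929 to 0.971, the mdx/mTR libraries between 35136327 and 60330410 with factors of 0.988 to 1.16, and a member had between 9511 (Myh2) and 3169095 (Myh4) counts in a library. Dmd was 228 to 244 CPM (counts scaled to the library total and the trimmed mean of M-values, TMM) in WT and 35.2 to 56.4 CPM in mdx/mTR, in the direction of the labels. Terc had 2 counts in all, so the labels could not be checked by it. The 12 muscle fibre reference genes were abundant in every library, and their summed level was 102800 to 108080 CPM in the WT mice and 76780 to 100200 CPM in mdx/mTR, with 8 of the 12 lower (such as Ryr1) and 0 higher under TMM scaling, and 4 lower and 0 higher with library totals alone. Macrophage markers summed to 36.3 to 62.9 CPM in the WT mice and 78.6 to 217 CPM in mdx/mTR (4 of 5 higher, Cd68 and Adgre1 among them), and fibroblast markers to 841 to 1559 CPM and 2160 to 4359 CPM (5 of 5 higher, such as Pdgfra and Dcn). Tendon markers were higher for 3 of 3 (such as Tnmd and Scx), Schwann cell markers lower for 3 of 3, and endothelial markers lower for 2 of 4 (Tek and Kdr). Of 4 smooth muscle markers 1 was higher (Acta2) and 2 lower (such as Myh11), of 3 satellite cell markers 1 was higher (Myf5), and 0 of 3 adipocyte markers passed (Cidec and Plin1 had the smallest p). No macrophage or fibroblast marker was at 0 in any library. Their part in the results below was not tested. In whole muscle, fewer fibres and less RNA per fibre cannot be told apart.

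Several libraries stood apart. In TMM-scaled CPM, WT replicate 2 had the highest Myh1 and Myh2 of its group and the lowest Myh4. The library with the highest TMM factor (1.16), mdx/mTR replicate 5, was lowest of its group for 7 members, and mdx/mTR replicate 2 was lowest for Actn3 and Myh4. Where leaving one of them out moved a value by over 1.5 times or changed a call, the value without it is given.

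Of the 10 members, 4 passed an adjusted p of 0.05 (edgeR quasi-likelihood test, Benjamini-Hochberg over all genes tested), against a background of 48.3% of all genes. Mylpf rose, where 25% of all genes were called higher, and Myh2, Myh4 and Tnnc2 fell, where 23.4% were called lower. In this fit the share of members called is near the background. In TMM-scaled CPM the groups did not overlap for 2 members, both lower, where 12.6% of all genes were lower without overlap. The median log2 fold change was -0.21 over the members and 0.01 over all genes. Without mdx/mTR replicate 1, which was the highest of its group for 8 members, 6 members were called lower in place of 3. That fit called 3219 of 14017 genes lower. The authors' deposited table has 8 members with an adjusted p below 0.05, 7 lower and 1 higher. Tnnt3, Tnni2, Tpm1 and Actn3 are added there, at log2 fold changes of -0.24, -0.20, -0.20 and -0.29. The share over all genes was not taken from that table. A DESeq2 fit of the same counts, made here, also called 8 members, 7 of them lower. It called 6951 of 13937 genes, 3419 of them lower.

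**Figure D1:**
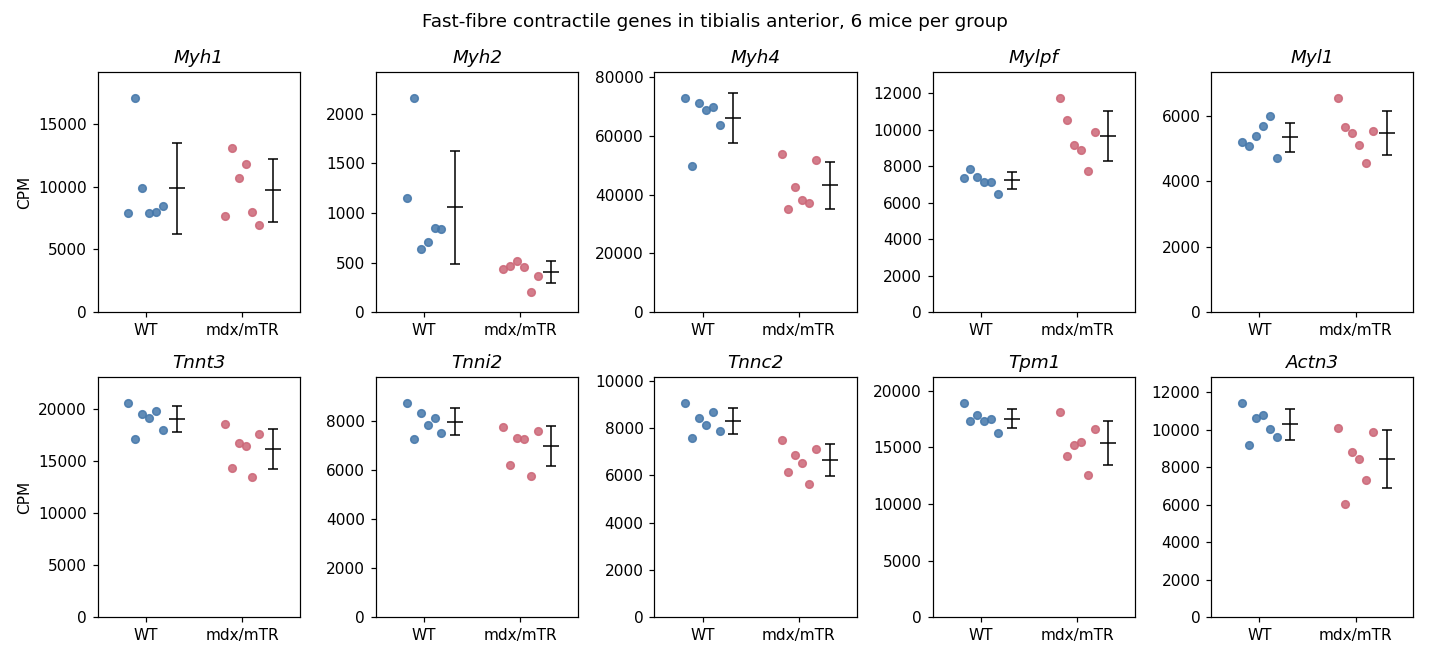
Level of each fast-fibre gene in CPM (y axes start at 0) for each of the 6 WT and 6 mdx/mTR mice; black bars are the mean and SD. With TMM scaling, Myh2 and Tnnc2 separate the groups (all mdx/mTR mice below all WT mice), the 6 mdx/mTR mice reach 11762 CPM for Mylpf against 7873 CPM in WT, and Myl1 overlaps fully.

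Myh4, the heavy chain of type IIB fibres and the member with the most counts, was 49911, 69235 and 73019 CPM (lowest, median and highest) in WT and 35257, 40370 and 53713 CPM in mdx/mTR. The groups overlapped only through WT replicate 2, the lowest WT library, which lay below mdx/mTR replicates 1 and 6. Its log2 fold change was -0.62 ± 0.14 (SE; edgeR adjusted p 0.00267), and -0.69 without WT replicate 2.

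Myh2, the type IIA heavy chain, was 633, 846 and 2161 CPM in the WT mice and 203, 446 and 517 CPM in mdx/mTR. All mdx/mTR libraries lay below all WT libraries, with or without WT replicate 2 at 2161 CPM. The log2 fold change was -1.38 ± 0.29 (SE; edgeR adjusted p 0.00165), the largest fall among the members, and -1.04 without WT replicate 2 (edgeR adjusted p 0.00144). An antisense gene, 9430073C21Rik, overlaps exons of Myh2, and Myhas overlaps those of Myh1, so without knowledge of strand their reads cannot be told apart.

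Myh1, the type IIX heavy chain, was 7864, 8216 and 17094 CPM in the WT mice and 6982, 9349 and 13061 CPM in mdx/mTR. Its log2 fold change was -0.03 ± 0.21 (SE; edgeR adjusted p 0.932), and it was positive under upper quartile scaling, library totals alone and muscle fibre reference scaling, with limma-voom sample weights, and without WT replicate 2 (0.20) or mdx/mTR replicate 1, 5 or 6. The groups overlapped. Where Myh1 was highest in each group, in WT replicate 2 and mdx/mTR replicate 2, Myh4 was lowest. Of the 50-base stretches in their longest coding transcripts, 26.7% for Myh1, 26.9% for Myh2 and 18.9% for Myh4 occur in other genes, mostly each other and Myh8, and how such reads were counted is not given in the sources used here.

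As one sum, the fast heavy chains stood at 77008 ± 5085 CPM for WT against 53246 ± 6282 CPM for mdx/mTR (SD, n = 6 each). The range was 69167 to 82035 CPM in the WT mice and 45429 to 61799 CPM in mdx/mTR, without overlap. WT replicate 2 was the lowest WT library here as well, although its Myh1 was the highest.

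Mylpf (chromosome 7, 127208890 to 127214298, plus strand), the fast regulatory light chain, was 6471, 7252 and 7873 CPM in the WT mice and 7765, 9502 and 11762 CPM in mdx/mTR. With TMM scaling the lowest mdx/mTR library (replicate 5) lay below the highest WT library (replicate 2). All other mdx/mTR libraries were above all WT libraries. With library totals alone, every mdx/mTR library lay above every WT library. The log2 fold change was 0.42 ± 0.10 (SE; edgeR adjusted p 0.00322). No 50-base stretch of Mylpf occurs in another gene (0.0%), and no other gene overlaps its exons in GENCODE M21.

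Myl1 (chromosome 1, 66924295 to 66945404, minus strand), the fast essential light chain, was 4719, 5305 and 5991 CPM in the WT mice and 4551, 5508 and 6566 CPM in mdx/mTR. The groups overlapped and the log2 fold change was 0.04 ± 0.09 (SE; edgeR adjusted p 0.757). It was 0.19 with library totals alone and 0.33 with muscle fibre reference scaling, both past the threshold. Myl1 makes the essential light chain in a long and a short form from alternative starts, which counts per gene do not separate, and 23.4% of its 50-base stretches also occur in the pseudogene Mylf-ps.

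Ratios of counts within a library do not depend on how libraries are scaled, and were chosen after the values had been seen, so they are given without a test. The heavy chains together had 10.7 ± 0.945 counts per Mylpf count in WT (8.78 to 11.3) and 5.55 ± 0.516 in mdx/mTR (4.64 to 6.01; SD, n = 6 each), about 48.1% lower in the mean. Mylpf had 1.36 ± 0.125 counts per Myl1 count in WT (1.19 to 1.55) and 1.76 ± 0.0670 in mdx/mTR (1.67 to 1.86). It had 0.910 ± 0.0885 counts per Tnni2 count in WT (0.842 to 1.08) and 1.39 ± 0.182 in mdx/mTR (1.22 to 1.69). In each of these ratios all mdx/mTR libraries lay on the same side of all WT libraries. WT replicate 2 was the WT library nearest to mdx/mTR in all of them, and without it the WT means were 11.1, 1.32 and 0.875.

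**Figure D2:**
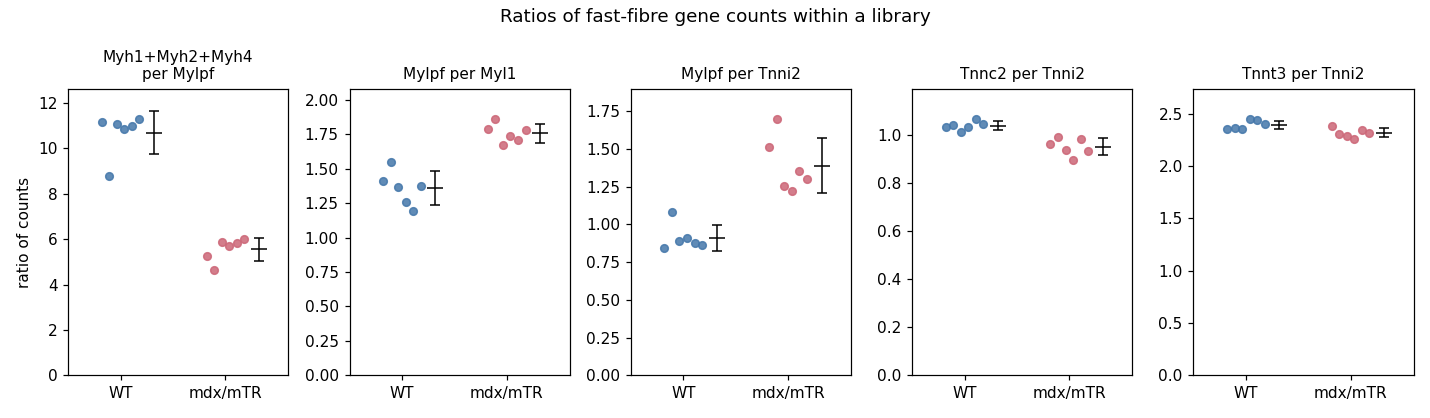
Ratios of raw counts between fast-fibre genes within each library (y axes start at 0) for 6 WT and 6 mdx/mTR mice; black bars are the mean and SD. Heavy chain counts per Mylpf count are 8.78 to 11.3 in WT and 4.64 to 6.01 in mdx/mTR, whereas Tnnt3 per Tnni2 overlaps between the groups.

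The troponin subunits form the calcium switch of the thin filament. Tnnc2 (chromosome 2, 164777161 to 164779967, minus strand), fast troponin C, which binds calcium, was 7584, 8280 and 9064 CPM in the WT mice and 5655, 6708 and 7503 CPM in mdx/mTR. The groups did not overlap with TMM scaling, and the log2 fold change was -0.32 ± 0.08 (SE; edgeR adjusted p 0.00611). With library totals alone the groups overlapped, as mdx/mTR replicate 1 (TMM factor 0.988) then lay above WT replicate 2 (0.971). With muscle fibre reference scaling the log2 fold change was -0.03 and did not pass. Another gene, Ube2c, overlaps exons of Tnnc2 on the other strand, at no more than 1.67 CPM in any library.

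Tnni2 (chromosome 7, 142441808 to 142444410, plus strand), fast troponin I, the inhibitory subunit, was 7262, 7995 and 8744 CPM in the WT mice and 5747, 7300 and 7775 CPM in mdx/mTR. Tnnt3 (chromosome 7, 142498836 to 142516009, plus strand), fast troponin T, which ties the complex to tropomyosin, was 17179, 19357 and 20603 CPM in the WT mice and 13469, 16600 and 18533 CPM in mdx/mTR. Both overlapped between the groups and neither passed: the log2 fold changes were -0.19 ± 0.09 (SE) for Tnni2 and -0.24 ± 0.10 (SE) for Tnnt3, with edgeR adjusted p of 0.0948 and 0.0562. Both were positive with muscle fibre reference scaling: Tnni2 passed there as higher (0.10, edgeR adjusted p 0.0493), opposite in direction to its call in the authors' deposited table, and Tnnt3 (0.05) did not pass. Without WT replicate 2, Tnnt3 passed as lower (-0.27).

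Within the complex, Tnnc2 had 1.04 ± 0.0174 counts per Tnni2 count in WT (1.01 to 1.07) and 0.952 ± 0.0350 in mdx/mTR (0.898 to 0.992; SD, n = 6 each). These ranges did not overlap. Tnnt3 had 2.39 ± 0.0416 counts per Tnni2 count in WT and 2.32 ± 0.0434 in mdx/mTR, and those ranges did. Tnnc2 had 0.435 ± 0.00669 counts per Tnnt3 count in WT (0.423 to 0.441) and 0.411 ± 0.0117 in mdx/mTR (0.397 to 0.430), also with overlap. The troponin genes Tnnt3, Tnni2 and Tnnc2 share no 50-base stretch with another gene (0.0% each). Tnnt3 has 23 annotated coding transcripts, which counts per gene do not separate.

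Tpm1 (chromosome 9, 67022590 to 67049406, minus strand), the alpha-tropomyosin that lies along the actin filament, was 16254, 17458 and 18934 CPM in the WT mice and 12565, 15340 and 18139 CPM in mdx/mTR. Actn3 (chromosome 19, 4861216 to 4877909, minus strand), the alpha-actinin that anchors actin at the Z-disc of fast fibres, was 9212, 10339 and 11433 CPM in the WT mice and 6057, 8621 and 10105 CPM in mdx/mTR. Both overlapped between the groups and neither passed: the log2 fold changes were -0.19 ± 0.09 (SE) for Tpm1 and -0.29 ± 0.12 (SE) for Actn3, with edgeR adjusted p of 0.109 and 0.0604. Tpm1 was positive with muscle fibre reference scaling (0.10), and Actn3 was close to 0 (-0.0024). Tpm1 is also made by smooth muscle and fibroblasts, from other transcripts. The summed smooth muscle markers were 100.1 to 166 CPM in the WT mice and 120 to 147 CPM in mdx/mTR, and fibroblast markers were higher, as given above.

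The values of several members depended on the scaling. Over all genes the median log2 fold change was 0.01 with TMM, 0.17 with library totals alone and 0.32 with scaling to the 12 muscle fibre reference genes, and that of the members was -0.21, -0.06 and 0.07. Myh2, Myh4 and Mylpf passed in the same direction under each of these 3 scalings. Over all genes, 3479 were higher and 3257 lower with TMM, 5596 and 1560 with library totals, and 7814 and 740 with the muscle fibre reference. The sum of the reference genes was lower in mdx/mTR under TMM scaling, whose factors were themselves higher there.

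**Figure D3:**
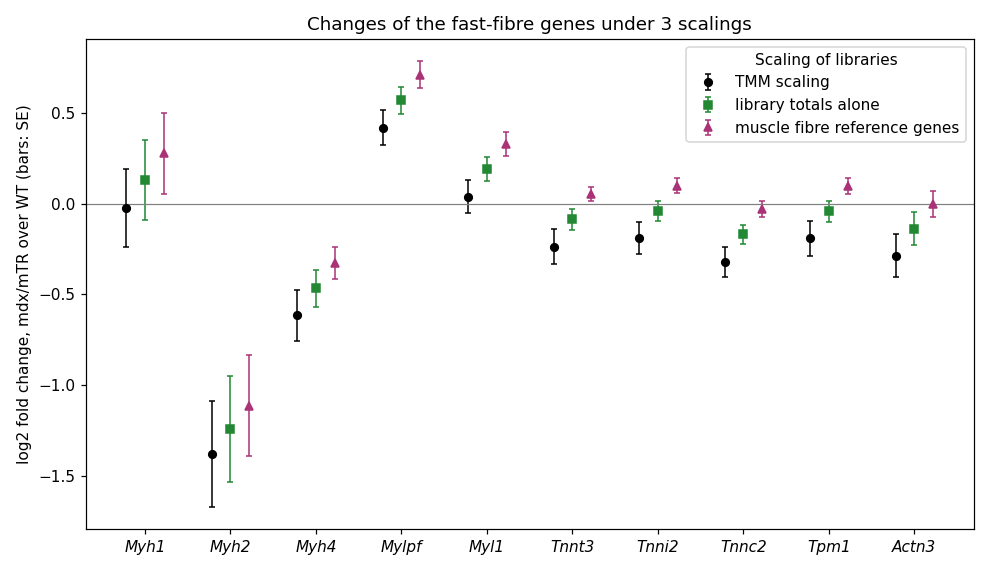
Change of each fast-fibre gene between mdx/mTR and WT mice, as log2 fold change, with bars for the SE, under TMM scaling, library totals alone and scaling to 12 muscle fibre reference genes. Myh2 and Myh4 stay below 0 and Mylpf above 0 under all 3, whereas Tnnt3, Tnni2 and Tpm1 are below 0 with TMM and above 0 with the reference genes, and Actn3 moves from -0.29 to close to 0.

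Per kilobase of the longest coding transcript, the WT levels ranked Tnnt3 first at 17666 CPM per kilobase. Tnnc2 (11854), Myh4 (10983), Tnni2 (10383) and Mylpf (9436) followed, and each neighbour in that order overlapped the next over the 6 mice. Tpm1 (6074), Myl1 (4941), Actn3 (3562), Myh1 (1624) and Myh2 (174) came next, each below the range of the one before. In mdx/mTR the level of Mylpf, 12608 CPM per kilobase, was second and overlapped that of Tnnt3 (14996), while Myh4 (7171) came below Tnnc2 (9487) and Tnni2 (9099) and overlapped both. With the median length of coding transcripts in place of the longest, Mylpf ranked second in WT and first in mdx/mTR, so the order near the top depends on which transcript is taken.

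Each fast gene was then set beside a partner isoform, by the partner's share of the counts of the pair. The 8 pairs were tested by two-sided exact permutation of the 12 mice with adjustment over the 8 (smallest possible p 0.00216). The pairs were chosen with earlier results of these data known, so their p-values are not independent support. Tnni1, slow troponin I, made up 0.0184%, 0.0261% and 0.0357% (lowest, median and highest) of Tnni2 and Tnni1 counts in WT and 0.155%, 0.249% and 1.88% in mdx/mTR. The share of Tnni2 was lower by 0.508 points (exact permutation adjusted p 0.00433), and by 0.239 points without mdx/mTR replicate 5, which had the highest Tnni1 share.

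Tnnt1, slow troponin T, made up 0.0192%, 0.0240% and 0.0263% of its pair in WT and 0.0393%, 0.0595% and 0.217% in mdx/mTR. Tnnc1, troponin C of slow fibres and heart, made up 0.0134%, 0.0237% and 0.0320% in WT and 0.0509%, 0.0762% and 0.234% in mdx/mTR. Neither overlapped between the groups, and in both pairs the exact permutation adjusted p was 0.00433. Without mdx/mTR replicate 5 the difference in the share of Tnnt3 was -0.0386 points in place of -0.0644, and that of Tnnc2 was -0.0544 points in place of -0.0804. All 3 slow troponin genes are also made in developing and regenerating fibres, and in every library they remained a small part of troponin counts.

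For the essential light chains the slow partner took a smaller share. Myl3, the essential light chain of slow fibres and heart ventricle, made up 0.942%, 1.25% and 2.996% of Myl1 and Myl3 counts in WT and 0.304%, 0.413% and 0.488% in mdx/mTR. The groups did not overlap, and the share of Myl1 was higher by 1.08 points (exact permutation adjusted p 0.00433), or 0.782 points without WT replicate 2. Myl3 fell from 80.1 ± 38.97 to 22.2 ± 4.41 CPM (SD, n = 6 each; log2 fold change -1.85, edgeR adjusted p 5.6e-05), while Myl1 did not pass. Exons of Pth1r overlap Myl3 on the other strand.

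Tpm3, the gene of the slow tropomyosin, has 7 annotated coding transcripts, which counts per gene do not separate. Which cells its counts came from was not tested. The pair of Tpm1 with Tpm3 was close to the threshold: Tpm3 made up 0.0783%, 0.0995% and 0.107% in WT and 0.0926%, 0.118% and 0.219% in mdx/mTR (exact permutation adjusted p 0.0485). The difference in the share of Tpm1 was -0.0415 points, and -0.0252 points without mdx/mTR replicate 5. This call was lost without each of 9 mice in turn, and 62.4% of the 50-base stretches of Tpm3 occur in other genes. The other 3 pairs did not pass. Myl2, the slow regulatory light chain, made up 0.0406% to 0.215% of its pair with Mylpf in WT and 0.0152% to 0.0658% in mdx/mTR (exact permutation adjusted p 0.119), a difference of 0.0412 points in the share of Mylpf that was 0.0140 points without WT replicate 2.

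Actn2, the alpha-actinin of all fibre types, made up 7.70% to 13.6% of its pair with Actn3 in WT and 8.95% to 26.3% in mdx/mTR (exact permutation adjusted p 0.0981). The difference in the share of Actn3 was -4.73 points, and -2.42 points without mdx/mTR replicate 2. It passed without WT replicate 2 (-5.44 points) and without mdx/mTR replicate 6 (-5.89 points). Myh1 made up 9.72% to 25.5% of its pair with Myh4 in WT and 11.9% to 27.03% in mdx/mTR (exact permutation adjusted p 0.132), and without WT replicate 2 the difference in the share of Myh4 was -7.94 points and passed.

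**Figure D4:**
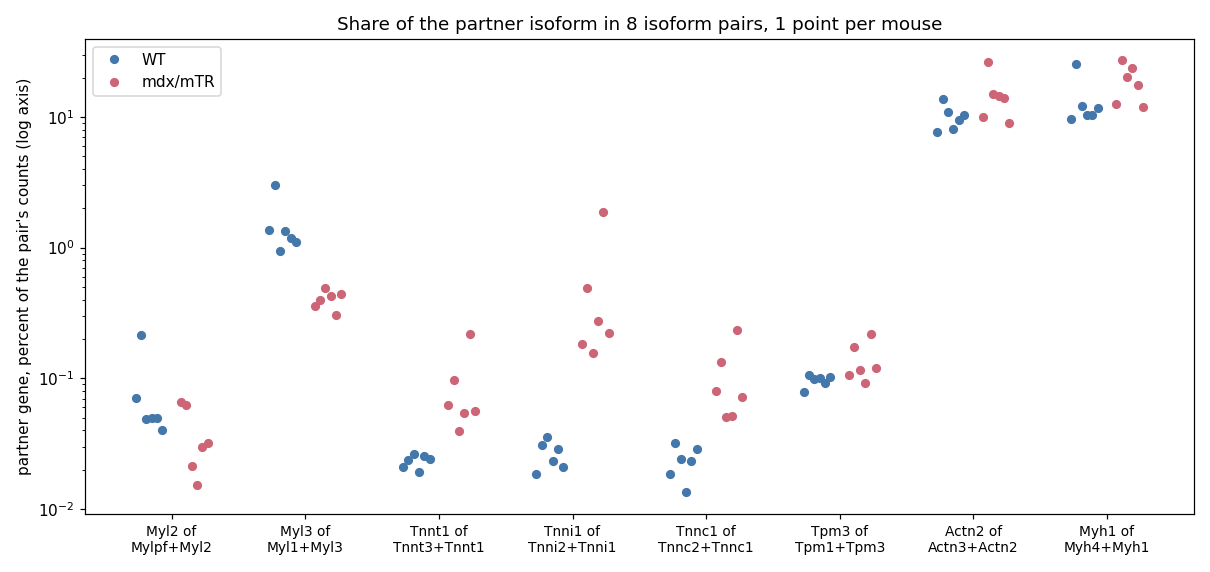
Share of the partner gene in the counts of each isoform pair, in percent on a log axis, with 1 point per mouse. The slow troponins Tnnt1, Tnni1 and Tnnc1 are higher in every mdx/mTR mouse than in every WT mouse and Myl3 is lower (0.304% to 0.488% against 0.942% to 2.996%), whereas the other 4 pairs overlap.

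Other lists of muscle genes were read from the same fit and are given as counts, beside the 25% of all genes called higher and the 23.4% called lower with TMM. Of 10 genes listed as slow-fibre contractile genes, 4 were higher (Myh7, Tnnt1, Tnni1 and Tnnc1) and 2 lower (Myl3 and Myh7b), with a median log2 fold change of 0.29. That median lay between Tpm3 (0.29) and Actn2 (0.30), neither of which passed, and Actn2 is made in all fibre types. All 6 developmental sarcomere genes were higher, with a median of 2.96, among them the embryonic heavy chain Myh3 (4.06), the atrial and embryonic light chain Myl4 (2.96) and the embryonic and cardiac troponin T Tnnt2 (2.96). Myh7 was 2.84 to 4.50 CPM in the WT mice and 2.82 to 29.9 CPM in mdx/mTR, with overlap. The mdx/mTR mean of Tnni1 was 33.9 CPM, or 18.7 CPM when replicate 5 was left out, and that of Myh3 was 74.4 CPM, or 46.2 CPM.

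Of 13 other genes typical of fast fibres, 2 were higher and 3 lower (median -0.16). Casq1, which stores calcium in the sarcoplasmic reticulum, rose from 3656 ± 247 to 4591 ± 791 CPM (SD, n = 6 each; log2 fold change 0.33, edgeR adjusted p 0.0181), without overlap, and Mybph rose by 1.46 on the log2 scale. The fast myosin binding protein Mybpc2 (-0.31), the myosin light chain kinase Mylk2 (-0.33) and Gpd1 (-0.25) fell. With library totals alone, 4 of these 13 were higher and 0 lower, and Mybpc2, Mylk2 and Gpd1 did not pass. Of all 13937 genes, 5596 were higher and 1560 lower with that scaling. With muscle fibre reference scaling 6 of the 13 were higher and 0 lower, beside 7814 and 740 of all genes. The calcium buffer Pvalb (0.15) and the calcium pump Atp2a1 (-0.13) did not pass with TMM. Pvalb passed as higher with library totals (0.30) and with the reference (0.43), and Atp2a1 with the reference (0.16).

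**Figure D5:**
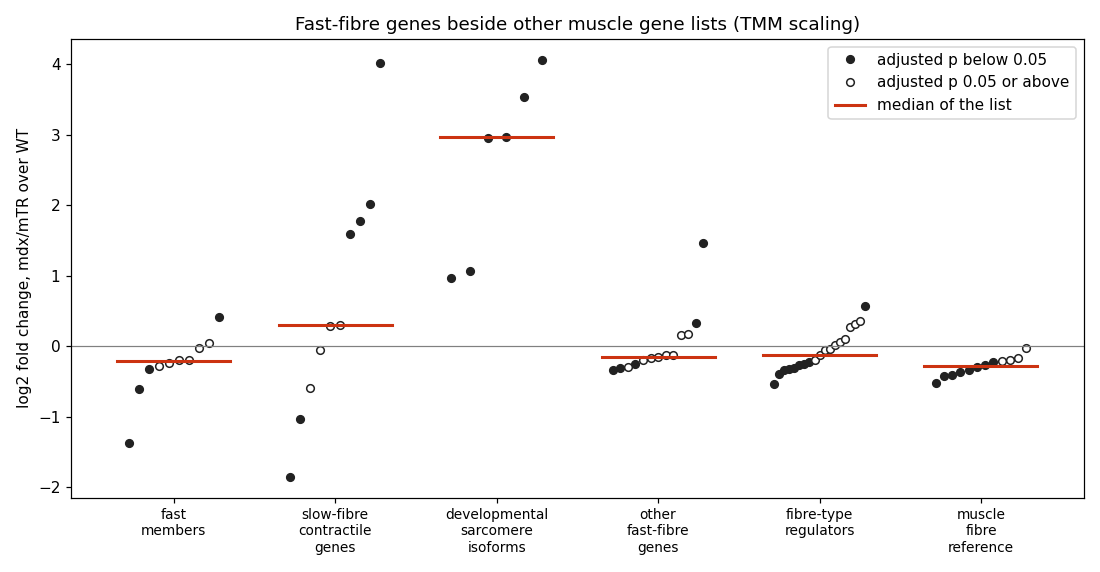
Change between mdx/mTR and WT mice, as log2 fold change, for each gene of the muscle gene lists under TMM scaling; filled points have an edgeR adjusted p below 0.05 and red lines are medians. The 10 fast members have a median of -0.21 and range from -1.38 (Myh2) to 0.42 (Mylpf), and the 6 developmental genes are all above 0.

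Among 19 regulators of fibre type, 1 was higher (Nfatc2, 0.57) and 8 were lower (median -0.13). The homeobox factor Six4 (-0.34) and the cofactor Eya1 (-0.54) fell, as did Nfatc3 (-0.32), Tbx15 (-0.31), Mef2d (-0.26), Sox6 (-0.25) and Mef2a (-0.23). Mef2d, Sox6 and Mef2a were positive with muscle fibre reference scaling. Under it 8 of the 19 were called higher and 0 lower, beside 7814 and 740 of all 13937 genes. With library totals alone 3 were lower (Eya1 and Nfatc3 among them) and 5 higher, beside 1560 and 5596 of all genes. The large Maf factors Maf (-0.13) and Mafa (0.05) did not pass with TMM, and Mafa passed as higher with the reference (0.35).

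The genes most like the average of the members were sought among 9499 other genes of at least 5 CPM. Deviations from the group mean were compared with the average deviation of the members by the Pearson correlation over the 12 libraries. The highest were Ndufc1 (0.982), Vapb (0.979), Grcc10 (0.949), Nfs1 (0.949) and Apopt1 (0.945). These values share the scaling of each library with the members, and none of the 5 genes passed between the groups (log2 fold changes from -0.14 to 0.14). Myh1 and Myh2 weigh strongly on the average. In WT replicate 2 they deviated by 0.85 and 1.16 and the average was the highest of WT (0.11). Yet Myh4, Tnnt3, Tnni2, Tnnc2 and Actn3 were at their WT lowest there. Likeness to the average is thus not likeness to each member.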

How the data were processed

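Messenger RNA of the tibialis anterior of 6 WT and 6 mdx/mTR mice was sequenced; groups and replicate numbers came from the labels. The authors deposited whole-number counts per gene symbol, and FastQC, STAR, DESeq2 and the build mm10 are named in the submitters' processing notes, without versions; the counting tool, annotation and strand handling are not given in the sources used here. The authors' deposited table of their comparison gives for each gene its average normalized signal, the log2 fold change and SE, the score of the test, and p-values, per the file headers.

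Counts were tested with edgeR 4.0.16 (R 4.3.3): filterByExpr, TMM scaling, glmQLFit and glmQLFTest with group as the only term, and Benjamini-Hochberg adjustment over 13937 genes with a threshold of 0.05. The SE is the log2 fold change divided by the square root of F. Isoform pairs were tested by exact permutation (Python 3.11.15, numpy 2.4.6), and deviations used log2(CPM + 0.5). Alternatives were other scalings and filters, DESeq2 1.42.0, limma-voom 3.58.1 (also with sample weights), leaving out each mouse, a block for the replicate number and a threshold of 0.01. Transcript lengths, gene positions and shared 50-base stretches came from GENCODE M21, and promoters from RefSeq. Counts were also simulated from the fitted levels and dispersions, with 200 genes changed, as many up as down. Of 13834 genes tested, edgeR recovered 90% of those changed by 1 and 65.7% of those changed by 0.5 (log2 scale). There were 5 false calls of 160. With so few and balanced changes, the simulation does not test the choice of scaling. Replicates of a group differed by more than sampling noise (chi-square per degree of freedom 9.32 to 128). Reads carry no molecular identifiers in these counts, so depth covers counting error only, and p-values measure the spread between mice.

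Means of count ratios and of slow-fibre and developmental genes without single mice were added after seeing the data. The members, lists and pairs were chosen with earlier results of these data known. Named genes are the members, their partners, the 5 genes most like the average of the members, and all genes a sentence needs. At least the 2 smallest p-values of each other list are named too. Some genes of the lists that this rule names are not reported here.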

Additional observations from a re-analysis of the deposited data

Results flagged for a closer look

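A library was singled out where it was the most extreme of its 6 and its distance to the next library exceeded 0.625 of the spread of all 6 (Dixon's ratio). This held in 13 of 56 sets of 6 values, where chance gives about 2.8; the values overlap in the genes they use and are not independent. No explanation was tested for any of them.

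WT replicate 2 accounted for 9. Its Myh1 was 17094 CPM against 7864 to 9929 CPM in the other WT libraries, and its Myh2 was 2161 CPM against 633 to 1151 CPM. Myh1 made up 25.5% of Myh4 and Myh1 counts there against 9.72% to 12.2%. It had 2.92 Myh4 counts per Myh1 count against 7.18 to 9.29, and 0.0433 Myh2 counts per Myh4 count against 0.00887 to 0.0158. Slow light chains were also highest in it: Myl2 was 0.215% of its pair against 0.0406% to 0.0705%, and Myl3 was 2.996% against 0.942% to 1.36%. It had 8.78 heavy chain counts per Mylpf count against 10.9 to 11.3, and 1.08 Mylpf counts per Tnni2 count against 0.842 to 0.909.

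In mdx/mTR replicate 5, Tnnt1 was 0.217% of its pair against 0.0393% to 0.0970% in the other mdx/mTR libraries, and Tnni1 was 1.88% against 0.155% to 0.491%. In mdx/mTR replicate 2, Actn2 was 26.3% of its pair with Actn3 against 8.95% to 15.04%, and there were 0.183 Actn3 counts per Acta1 count against 0.272 to 0.324.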

How the results depend on the processing

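Myh2, Myh4 and Mylpf kept their direction and stayed past the threshold in all 23 alternatives run, and Tnnc2 in 22, the exception being muscle fibre reference scaling (-0.0299). DESeq2 called 8 members, 7 of them lower, and limma-voom 5 lower with and without sample weights. Over all 13937 genes, DESeq2 called 3532 higher and 3419 lower. Limma-voom called 3280 lower, and 3385 with sample weights. Leaving out 1 mouse gave log2 fold changes of -1.49 to -1.04 for Myh2, -0.69 to -0.56 for Myh4, 0.35 to 0.47 for Mylpf and -0.36 to -0.28 for Tnnc2. Fits that each left out 1 mouse called 4 to 7 members, 3 to 6 lower, and 6125 to 6816 genes over the whole table. With library totals alone 2 members were called higher and with muscle fibre reference scaling 3; over all genes these scalings gave 5596 higher with 1560 lower and 7814 higher with 740 lower.

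Log2 fold changes that crossed 0 were those of Myh1 (0.0151 with upper quartile scaling, 0.13 with library totals, 0.28 with the muscle fibre reference, 0.0784 with sample weights; -0.13 to 0.20 leaving out 1 mouse), Myl1 (-0.021 to 0.0827 leaving out 1 mouse), and, with the muscle fibre reference, Tnnt3 (0.0522), Tnni2 (0.10) and Tpm1 (0.10). Myl1 passed at 0.19 with library totals and 0.33 with the reference. Tnnt3 passed at -0.22 with a filter of 1 CPM, -0.24 with DESeq2, -0.24 with limma-voom and -0.20 with sample weights (-0.28 to -0.19 leaving out 1 mouse). Tnni2 passed as higher at 0.10 with the reference (adjusted p 0.0493) and as lower at -0.20 with DESeq2, and Tpm1 passed at -0.20 with DESeq2 (-0.24 to -0.14 for Tpm1 leaving out 1 mouse). Actn3 passed at -0.29 with DESeq2, -0.30 with limma-voom, -0.23 with sample weights and -0.30 with the replicate block (-0.35 to -0.21 leaving out 1 mouse).

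Among the pairs, Tpm1 against Tpm3 did not pass as a log2 ratio (-0.46), and leaving out 1 mouse gave -0.0505 to -0.0252 points. The range was -5.89 to -2.42 points for Actn3 against Actn2 and -7.94 to -3.85 points for Myh4 against Myh1. The pairs of Myl1 and the 3 troponins passed under all 15 alternatives run. The groups share replicate numbers, but deviations of same-numbered mice correlated at -0.155 to 0.354, above 0.1 for 2 of 6 numbers, and were not treated as pairs. Permuting within numbers (a replicate block) gave a lost call for Tpm1 at -0.0415 points and calls for Mylpf against Myl2 at 0.0412 and Myh4 against Myh1 at -5.50 points; the block changed no other member or pair call beyond Actn3 and gave 6420 genes. The cause of these shifts was not tested. Within numbers the smallest possible exact p is 0.03125, reached when all differences have the same sign. After adjustment over the 8 pairs, a call there needs several pairs at that floor together. Each member had at least 9511 counts in a library, so counting error is small beside the spread between mice.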

Other observations

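Actn3 had 0.333 ± 0.0365 counts per count of the skeletal actin gene Acta1 in WT (0.271 to 0.375) and 0.277 ± 0.0505 in mdx/mTR (0.183 to 0.324; SD, n = 6 each), with overlap. Tpm1 had 2.197 ± 0.130 counts per count of the beta-tropomyosin gene Tpm2 in WT and 2.095 ± 0.176 in mdx/mTR, also with overlap. Acta1 itself, whose protein forms the thin filament of all fibres, had a log2 fold change of -0.02 with TMM (edgeR adjusted p 0.870). It was 0.13 with library totals alone, which did not pass. With scaling to the muscle fibre reference genes, of which Acta1 is one, it passed as higher (0.28, edgeR adjusted p 0.00366). The 10 members together took 13.7% to 15.2% of the counts of a WT library and 11.9% to 14.04% of those of an mdx/mTR library.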
